A study of Mus musculus with 8 samples.

Results

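The microRNAs (miRNAs) with established roles in cholesterol, insulin and fat metabolism were examined in the testis of mice fed a standard diet (SD) or a Western-like diet (WD). The entries of the miRNA class named as miR-33, miR-103, miR-107, miR-122, miR-335, miR-375 or miR-378 (with or without a letter a to d) were taken by name, without reference to their counts. The rule selected 14 of the 20558 small RNAs listed, all of them among the 576 names of mature miRNAs within the 730 entries of the miRNA class. They carry 7 different miRNA numbers. Both groups were C57Bl/6 males, 4 per group, each library from an individual adult animal. SD mice (M1N, M2N, TN1 and TN2) received standard chow. WD mice (M1W, M2W, M3W and M5W) received a chow rich in sugar and butter after weaning, and the comparison asks whether the diet altered the small RNA of their testes. Males of both groups were mated at 4 months of age. The sample labels place the start of the diet at 4 weeks of age, whereas the study's methods give a younger age. The growth text of the labels describes the lipid-rich diet for all 8 males, the controls included, so the diets were taken from the control and experimental labels. No agent other than the diet and no altered allele is named for any mouse.

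Counts are the deposited reads per small RNA. The libraries held between 2064562 counts (TN2) and 3253798 counts (M2N), of which the miRNA class took between 9.23% (TN2) and 12.7% (M2W). Abundance is given in CPM, the count relative to the library size, after TMM scaling, a correction for composition between libraries. A count of 0 in a single library allows up to 3 counts, between 0.933 and 1.39 CPM, and this limit and all intervals on counts cover counting error only. Testis identity was read from abundance: miR-34c-5p, a miRNA of meiotic and later germ cells, was the most abundant mature miRNA of the table at 8034 CPM. All 8 germ cell and testis miRNAs asked for were listed. The marker lists for neurons, epithelium and vessels were also listed in full, so being listed does not by itself identify the tissue.

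The libraries M1N and M2N stood apart from the rest. The chi-square of the counts divided by its degrees of freedom, which is near 1 for repeat draws from the same RNA, was 8.12 between M1N and M2N, from 14.3 to 24.4 between M1N and the other 6 mice, and from 6.18 to 13.8 between M2N and those 6. Among the 6 others it ranged from 2.56 (TN1 with TN2) to 6.12 (M2W with M5W). M1N and M2N share the initial of all WD mice, whereas TN1 and TN2 carry other letters, whose meaning is not given in the sources used here. Values are therefore given for each pair of SD mice where they differ.

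MiRNAs guide Argonaute proteins to messenger RNAs, chiefly through bases 2 to 8 of the mature strand, the seed, and lower the output of these targets. Within metabolism, miR-33 lies in the gene of a sterol-sensing transcription factor and restrains cholesterol export and fatty acid oxidation, miR-122 is the dominant miRNA of hepatocytes and sustains lipid synthesis, miR-103 and miR-107 dampen insulin sensitivity in liver and fat, miR-375 restrains insulin secretion in islet beta cells, miR-378 acts on mitochondrial energy use, and miR-335 accompanies lipid loading of fat cells. In the testis, Sertoli cells feed lipids and lactate to germ cells, and Leydig cells make steroids from cholesterol.

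For none of the 10 metabolic miRNAs that could be tested was a difference between the diets found beyond the spread between mice. Of the 14, these 10 passed the filter on low counts, and 0 of them met the study's criteria for miRNAs (unadjusted p ≤ 0.1, fold change ≥ 1.5), against 15.1% of the 418 tested entries of the miRNA class. After Benjamini-Hochberg adjustment of edgeR's p-values over 16955 small RNAs, 0 of the 10 had an adjusted p under 0.05, against 0% of all small RNAs tested. Before adjustment, 0 of the 10 were below 0.05 in edgeR's test, against 14.6% of all. DESeq2 placed 0 of the 10 within the criteria, against 13.9% of the class, and limma-voom 1 (miR-103-2-5p), against 13.4%, and neither gave any an adjusted p under 0.05. The groups overlapped in all 10, whereas they did not overlap in 8.37% of the class. The log2 fold change, WD minus SD, was above 0 in 5 of the 10 and below 0 in 5, with a median of 0.06 beside -0.006 over all small RNAs. Without M2W, 3 of the 10 met the criteria (miR-378-3p, miR-378-5p and miR-103-2-5p), against 22.2% of the class. The count was 1 without M1N (miR-103-2-5p, against 11.7% of the class), without TN1 or TN2 (miR-378-5p, against 21.1% in each case) and without M1W (miR-33-3p, against 15.3%).

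miR-122, the liver miRNA, was read in a pair of mice and in no others. Its 5p strand, the main product in liver, had 49 counts in TN1 and 28 in TN2, and 0 counts in M1N, M2N, M1W, M2W, M3W and M5W. Its 3p strand had 12 counts in TN1, 9 in TN2, and 0 in the same 6 mice. Both SD mice with TN names thus carried both strands, and no mouse with an M name carried either, whichever its diet.

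In TN1 and TN2 together the 77 counts of miR-122-5p (95% Poisson interval 60.8 to 96.2) amounted to 14.4 CPM. The 6 M-named libraries held 16977243 counts in all, and a count of 0 among them allows up to 3 counts, or 0.179 CPM over the sum of these 6 libraries. From the lower end of its interval, miR-122-5p was at least 63.66-fold higher in TN1 and TN2 than this limit for the M-named mice. miR-122-3p, with 21 counts (95% Poisson interval 13 to 32.1), was likewise at least 13.6-fold higher. The 5p strand made up 80.3% of the miR-122 counts in TN1 and 75.7% in TN2. Both entries failed the filter on low counts, which asks for about 10 counts in at least 4 mice, and were not tested in the reported fit. With no filter both met the criteria, lower in WD mice (edgeR, unadjusted p = 0.00324 for the 5p and 0.00991 for the 3p strand, adjusted p = 0.346 for each), against 16.6% of the 730 entries of the class. Such a contrast of all SD with all WD mice sets the 2 TN mice against the rest, because M1N and M2N were at 0 like the WD mice. A fold change fitted to a group at 0 also depends on the prior count, and none between the diets is given.

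The 2 strands of miR-122 were the only entries among all 20558 small RNAs that had 0 counts in the 6 M-named mice. The table lists entries with at least 9 counts in total. In the opposite direction, 74 entries had 0 counts in both TN mice, but just 1 of these, the piRNA FR113693, noticed after its counts were seen, reached 9 counts in each of M1N and M2N. Other miRNAs of liver, gut and kidney, chosen after the values of miR-122 had been seen, were spread differently. miR-192-5p, abundant in liver, gut and kidney, measured 266 CPM in M1N, 200 in M2N, 151 in TN1, 127 in TN2, 108 in M1W, 163 in M2W, 170 in M3W and 97.7 in M5W. It was highest in M1N and M2N. Its range among the M-named mice, 97.7 to 266 CPM, was far wider than the 15.4 and 13.0 CPM of miR-122-5p in TN1 and TN2. An added amount of the size of miR-122-5p would therefore not be seen in miR-192-5p. miR-194-5p, from the same clusters, measured 9.77 CPM in TN1 and 11.1 in TN2, within the 2.74 to 13.8 CPM of the M-named mice. The third entry, miR-192-3p, measured 1.89 CPM in TN1 and 4.17 in TN2, within the 1.64 to 7.88 CPM of the M-named mice. miR-802-5p was not among the entries. The source of miR-122 in TN1 and TN2 was not tested.

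**Figure D1:**
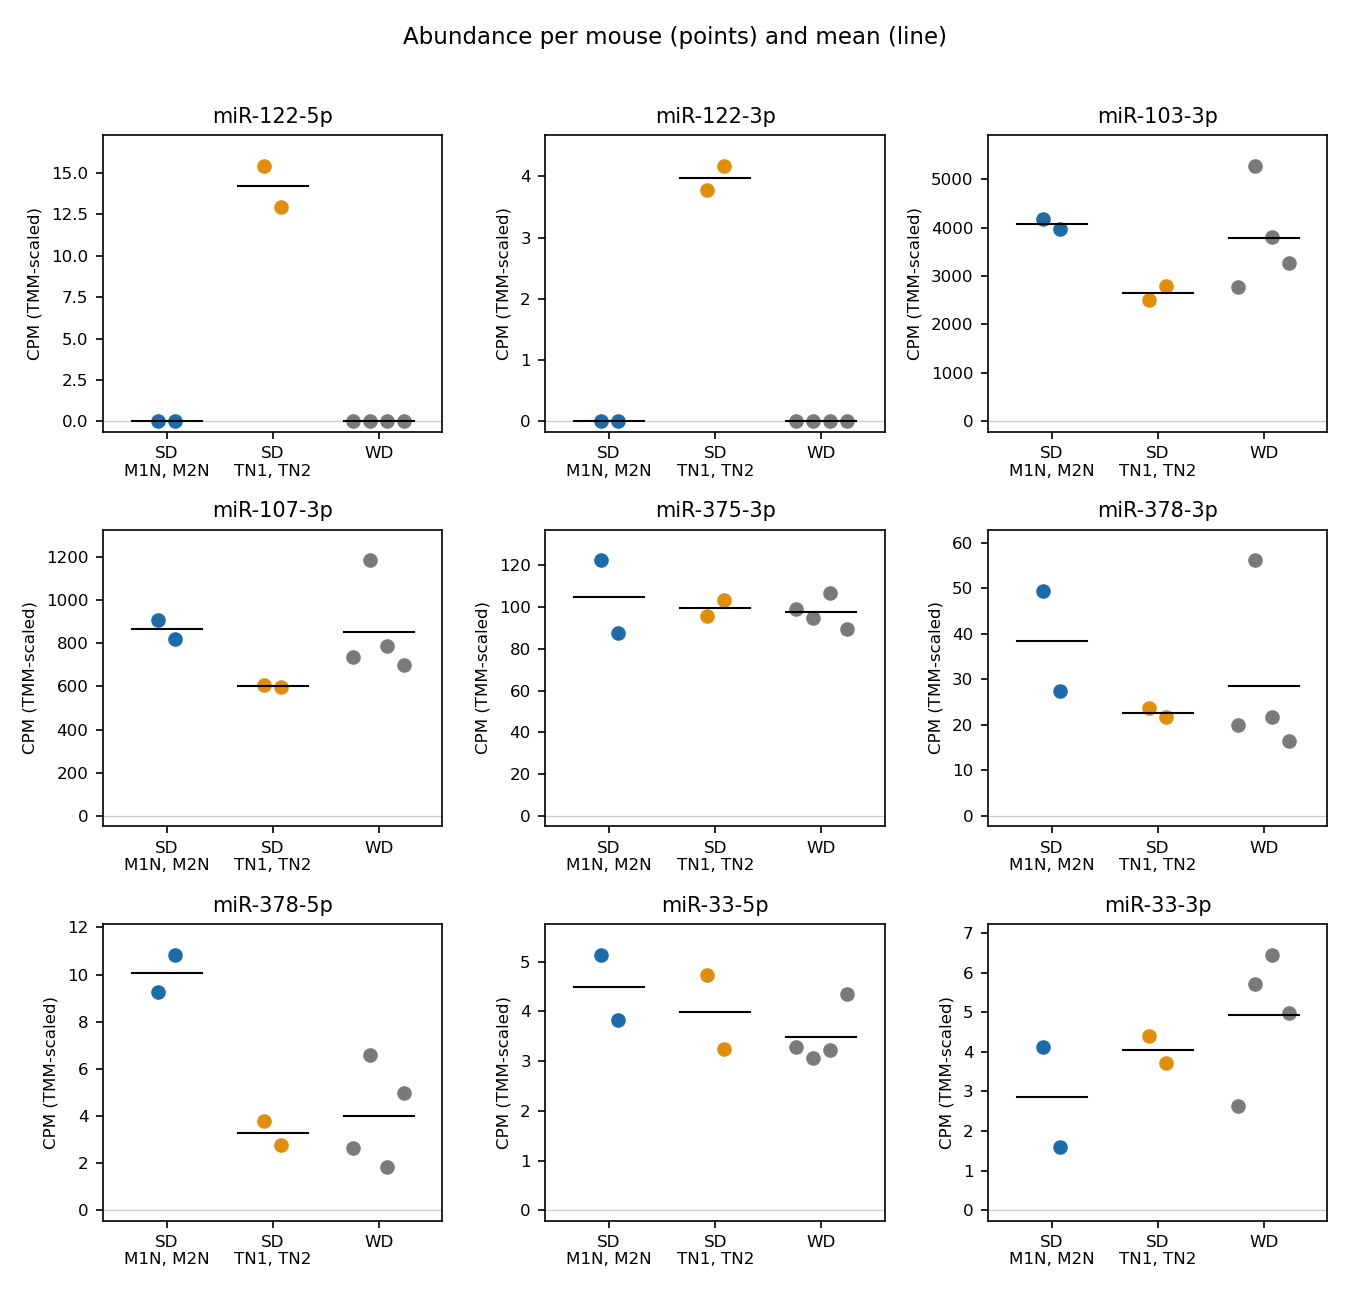
CPM (TMM-scaled, linear axes from 0) of 9 miRNAs in each mouse, with the SD mice divided by the first letters of their names. Points are mice and lines are means. miR-122-5p stands at 15.4 CPM in TN1 and 13.0 in TN2 and at 0 in the 6 others, whereas miR-103-3p and miR-107-3p have M2W as the highest mouse and the TN mice among the lowest, and miR-375-3p lies between 87.4 and 122.35 CPM in all 8.

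miR-103 and miR-107, regulators of insulin sensitivity, supplied most of the metabolic miRNA reads. miR-103-3p ranked 8 of the 576 mature names, with 3.41% of all miRNA counts, and miR-107-3p ranked 30 with 0.758%. miR-103-3p measured 4184 CPM in M1N, 3967 in M2N, 2497 in TN1 and 2799 in TN2, against 2779 in M1W, 5273 in M2W, 3798 in M3W and 3271 in M5W. M2W was highest, M1N and M2N came next, and the TN mice and M1W were lowest, so the diets overlapped along most of their range. The means were 3362 ± 838 CPM in SD and 3780 ± 1079 CPM in WD mice (mean ± standard deviation, n = 4 each; exact permutation test, two-sided, p = 0.571). edgeR gave a log2 fold change of 0.17 ± 0.23 (SE; 95% interval -0.31 to 0.65; adjusted p = 0.724). The direction followed the control mice: it was -0.11 against M1N and M2N and 0.51 against TN1 and TN2, and it was -0.029 without M2W.

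miR-107-3p took the same course at a lower level: 908 CPM in M1N, 821 in M2N, 608 in TN1, 597 in TN2, 735 in M1W, 1185 in M2W, 785 in M3W and 697 in M5W. Again M2W was highest and both TN mice were lowest. Its log2 fold change was 0.21 ± 0.21 (SE; 95% interval -0.22 to 0.65; adjusted p = 0.612), with -0.024 against M1N and M2N and 0.50 against TN1 and TN2. It was 0.016 without M2W, 0.13 without TN1 or TN2 and 0.33 without M1N. As a percentage of miRNA counts, miR-107-3p was 0.760 in M1N, 0.744 in M2N, 0.637 in TN1 and 0.676 in TN2. The WD mice were at 0.802 (M1W), 0.929 (M2W), 0.759 (M3W) and 0.739 (M5W). On this scale the WD mean, 0.807, was also above M1N and M2N, although M3W and M5W lay below M1N. The ratio of miR-103-3p to miR-107-3p was 4.61, 4.83, 4.11 and 4.69 in M1N, M2N, TN1 and TN2 and 3.78, 4.45, 4.84 and 4.69 in M1W, M2W, M3W and M5W. It thus varied less between mice than either miRNA did, and the diets overlapped (4.56 ± 0.313 in SD and 4.44 ± 0.468 in WD mice, n = 4 each; exact permutation test, two-sided, p = 0.657).

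Other values moved with miR-103-3p across the mice. The share of the miRNA class in all counts was 12.7% in M2W, 10.7% in M1N, 10.6% in M2N and 10.4% in M3W, and from 9.23% to 9.82% in the other 4 mice. The vessel and stroma markers, all 6 of which were listed and led by miR-145-5p, summed to 6598, 6747, 5141 and 4674 CPM in M1N, M2N, TN1 and TN2 and to 4726, 8904, 6180 and 4804 CPM in M1W, M2W, M3W and M5W. M2W, M1N, M2N and M3W were the 4 highest mice in all 3 measures, miR-103-3p included. Most of the sum came from miR-145-5p and miR-126-3p, and not every marker followed it. miR-143-3p was lowest of all in M1N (165 CPM) and M2N (296 CPM), against 355 in TN1 and 402 in TN2, and miR-199a-3p in M1N (185 CPM) lay below TN1 (188) and TN2 (191). As a percentage of miRNA counts, which sets the share of the class aside, miR-103-3p was 3.50, 3.59, 2.62 and 3.17 in M1N, M2N, TN1 and TN2 and 3.03, 4.14, 3.67 and 3.46 in M1W, M2W, M3W and M5W, with M2W still highest and TN1 still lowest. The part of these values in the level of miR-103-3p was not tested. In whole tissue, fewer cells of a type and less RNA per cell cannot be told apart.

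The mature sequences bear on how these counts can be read. Sequences were available for 9 of the 14 miRNAs (RefSeq, GRCm38.p6), with 6 seeds, and 0 of 421 other listed miRNAs with a sequence shared any of these seeds. The 3p strands of miR-103 and miR-107 share a seed, which is in capitals, and differ at a base near the 3′ end, G22C, with positions counted from 1 at the 5′ end and the base of miR-103-3p given before that of miR-107-3p.
miR-103-3p: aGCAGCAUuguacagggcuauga
miR-107-3p: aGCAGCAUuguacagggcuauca
The authors' alignment allowed 2 mismatches, more than the 1 that separates them, and how a read matching both was counted is not given in the sources used here. The split between miR-103-3p and miR-107-3p is therefore uncertain.

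The 5p strands carry the same kind of likeness, and those of the miR-103 genes, unlike their 3p strand, differ in sequence. They share a seed of their own. miR-107-5p differs from miR-103-2-5p by U16C alone, and miR-103-2-5p from miR-103-1-5p by A1G alone, the base of the former given before that of the latter.
miR-103-1-5p: gGCUUCUUuacagugcugccuug
miR-103-2-5p: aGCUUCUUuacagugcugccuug
miR-107-5p: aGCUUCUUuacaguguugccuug
These differences too are within the 2 mismatches allowed, so the split of reads among the 5p strands is as uncertain as that of the 3p strands.
By exact match to the NCBIM37 (mm9) genome, miR-103-3p had 2 positions, and each of the 3 5p strands and miR-107-3p had 1. The precursors lie at chr11:35595898-35595983 (+) for Mir103-1, chr2:131113788-131113873 (+) for Mir103-2 and chr19:34895177-34895263 (-) for Mir107. In the GENCODE M1 annotation they lie in introns of Pank3, Pank2 and Pank1 in this order, on the strand of the host. These genes encode pantothenate kinases, which start the synthesis of coenzyme A, the carrier of fatty acids and acetyl groups.

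The 5p strands were rare, with 84 counts of miR-103-1-5p, 91 of miR-103-2-5p and 150 of miR-107-5p over the 8 mice. Of the reads on both strands they made up 0.224% for miR-103 (both genes together) and 0.858% for miR-107. The log2 5p to 3p ratio differed between the diets by 0.19 ± 0.40 (SE) for miR-103 (limma, adjusted p = 0.833) and by 0.05 ± 0.30 (SE) for miR-107 (adjusted p = 0.967). Against M1N and M2N these differences were 0.43 and -0.090, and against TN1 and TN2 -0.059 and 0.19. An adjusted p under 0.05 was reached by 0 of the 4 testable precursors (miR-33, miR-103, miR-107 and miR-378), against 0% of the 115 precursors with enough reads on both strands, of which 20 had an unadjusted p of 0.05 or less.

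The rare strands are counted by miR-103 gene, with the doubt about their split given above. miR-103-1-5p had 19, 7, 13 and 5 counts in M1N, M2N, TN1 and TN2 and 13, 5, 10 and 12 in M1W, M2W, M3W and M5W. miR-103-2-5p had 14, 6, 11 and 6 counts in the SD mice and 21, 8, 9 and 16 in the WD mice, in the same order. The ratio of the former to the latter was 1.36, 1.17, 1.18 and 0.833 in SD mice and 0.619, 0.625, 1.11 and 0.750 in WD mice. SD mice thus tended to the higher ratios, but M3W lay among the SD mice and TN2 among the WD mice (1.14 ± 0.219 in SD and 0.776 ± 0.231 in WD mice, n = 4 each; exact permutation test, two-sided, p = 0.0571, where 0.0286 is the smallest p possible). With a single base between these strands, the ratio rests on how the reads were assigned to them. The log2 fold change of miR-103-2-5p was 0.61 ± 0.36 (SE; adjusted p = 0.412) and that of miR-103-1-5p -0.04 ± 0.40 (SE; adjusted p = 0.961). The former met the criteria with column totals, with upper-quartile factors and with limma-voom, and without M1N (0.87) or M2W (0.73), whereas it was 0.39 without M1W and 0.41 without M2N, and the direction of the latter changed with several settings (-0.21 against M1N and M2N, 0.16 against TN1 and TN2). An entry named as the precursor of miR-103-2 had 2 to 5 counts per mouse.

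miR-107-5p measured 7.20, 8.93, 4.41 and 4.63 CPM in M1N, M2N, TN1 and TN2 and 7.56, 7.89, 6.91 and 6.53 in M1W, M2W, M3W and M5W. The TN mice were the lowest, below all 4 WD mice, while M1N and M2N lay among or above them. Its log2 fold change was 0.18 ± 0.29 (SE; adjusted p = 0.775) against all SD mice, -0.16 against M1N and M2N and 0.67 against TN1 and TN2. It was 0.030 without TN1, 0.076 without TN2 and 0.41 without M2N.

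miR-33, which restrains cholesterol export, was near the limit of these libraries. Its precursor lies at chr15:82028552-82028620 (+) of NCBIM37, in an intron of Srebf2 on the same strand, a gene that encodes a master regulator of cholesterol synthesis. Both strands were read about equally, 87 counts of the 5p and 90 of the 3p strand over all mice, and they carry different seeds, so that their targets need not be the same.
miR-33-5p: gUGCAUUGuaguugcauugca
miR-33-3p: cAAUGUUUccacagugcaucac
miR-33-5p measured 5.14, 3.83, 4.73 and 3.24 CPM in M1N, M2N, TN1 and TN2 and 3.29, 3.07, 3.23 and 4.35 in M1W, M2W, M3W and M5W. miR-33-3p measured 4.11, 1.59, 4.41 and 3.71 CPM in the SD mice and 2.63, 5.70, 6.45 and 4.98 in the WD mice, in the same order. The strands leaned in opposite directions, and in both the diets overlapped: the log2 fold change was -0.28 ± 0.31 (SE; adjusted p = 0.672) for the 5p and 0.49 ± 0.38 (SE; adjusted p = 0.529) for the 3p strand. For the 5p strand it was -0.17 without M1N and -0.41 without M5W. For the 3p strand it was 0.76 against M1N and M2N and 0.23 against TN1 and TN2. It was 0.24 without M2N and 0.71 without M1W, where it met the criteria (edgeR, unadjusted p = 0.0808, adjusted p = 0.534).

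The 5p strand accordingly made up 55.6%, 70.6%, 51.7% and 46.7% of the miR-33 counts in M1N, M2N, TN1 and TN2 and 55.6%, 35%, 33.3% and 46.7% in M1W, M2W, M3W and M5W. M2N was highest and M2W and M3W were lowest, with the remaining mice of both diets between them. The mean was 56.1% ± 10.3 in SD and 42.6% ± 10.5 in WD mice (mean ± standard deviation, n = 4 each; exact permutation test on the log2 ratio, two-sided, p = 0.114). limma gave a log2 ratio difference of -0.77 ± 0.47 (SE; 95% interval -1.76 to 0.21; adjusted p = 0.411). It was -1.17 against M1N and M2N (unadjusted p = 0.0377) and -0.38 against TN1 and TN2 (unadjusted p = 0.471), with no adjusted p under 0.05 in either, and from -1.01 (without M1W) to -0.50 (without M2N) as each mouse was left out. These ratios rest on 15 to 30 reads per mouse on the pair of strands.

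miR-375-3p, the islet miRNA that restrains insulin release, stood at rank 109. In CPM it had the smallest observed variation between mice among the tested metabolic miRNAs. It measured 122.35, 87.4, 95.4 and 103.3 CPM in M1N, M2N, TN1 and TN2 and 98.9, 94.7, 106.9 and 89.6 in M1W, M2W, M3W and M5W. M1N was the highest mouse and M2N the lowest, both on the standard diet, and the WD mice lay between them. The coefficient of variation over the 8 mice was 11.2%, against 6.04% from counting alone at its mean of 274 counts, and 25.8% for miR-103-3p. The rarer miR-33-5p (20.5% against 30.3% from counting) and miR-107-5p (23.0% against 23.1%) varied more, but no further than counting alone gives. As a percentage of miRNA counts, miR-375-3p ranged from 0.0743 in M2W to 0.117 in TN2. On that scale miR-107-3p, from 0.637 in TN1 to 0.929 in M2W, varied relatively less, so the rank of miR-375-3p holds for CPM only. The log2 fold change of miR-375-3p was -0.07 ± 0.16 (SE; 95% interval -0.40 to 0.27; adjusted p = 0.851), an interval that leaves out changes of 1.5-fold in either direction. Its log2 fold changes were -0.10 against M1N and M2N and -0.026 against TN1 and TN2, and it was 0.035 without M1N. The precursor lies at chr1:74947226-74947300 (-) of NCBIM37, outside protein-coding genes of the annotation.

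miR-378, a miRNA of mitochondrial energy metabolism, varied widely between mice of the same diet. miR-378-3p measured 49.4, 27.4, 23.6 and 21.8 CPM in M1N, M2N, TN1 and TN2 and 20.1, 56.1, 21.7 and 16.5 in M1W, M2W, M3W and M5W. M2W and M1N were far above the other 6 mice, each in a different group. The log2 fold change was -0.12 ± 0.36 (SE; adjusted p = 0.883), and it was -0.66 without M2W, within the criteria, and 0.21 without M1N. It was -0.45 against M1N and M2N and 0.30 against TN1 and TN2. Its direction also turned without M1W (0.021) or M5W (0.080), so that no direction can be given for it.

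miR-378-5p had a mean of 15.3 counts and measured 9.25, 10.8, 3.78 and 2.78 CPM in M1N, M2N, TN1 and TN2 and 2.63, 6.58, 1.84 and 4.98 in M1W, M2W, M3W and M5W. M1N and M2N were above all other mice, and the TN mice lay among the WD mice. The log2 fold change was -0.76 ± 0.45 (SE; 95% interval -1.72 to 0.21; adjusted p = 0.417) against all SD mice. Against M1N and M2N it was -1.32 ± 0.39 (SE; adjusted p = 0.0205), with all 4 WD mice below both, and against TN1 and TN2 it was 0.26 ± 0.49 (SE; adjusted p = 0.999). With each mouse left out it ran from -0.42 (without M2N) to -1.04 (without M2W). It met the criteria without TN1 (-0.97, unadjusted p = 0.0497), TN2 (-0.98, unadjusted p = 0.0353) or M2W (unadjusted p = 0.053), with adjusted p of 0.261, 0.188 and 0.335 by edgeR. The 5p strand made up 16.0% of all miR-378 counts, 17.3% ± 7.57 in SD and 13.3% ± 6.79 in WD mice (mean ± standard deviation, n = 4 each), a log2 ratio difference of -0.46 ± 0.44 (SE; limma, adjusted p = 0.616). This ratio difference was -0.89 against M1N and M2N and -0.019 against TN1 and TN2, and from -0.13 (without M2N) to -0.81 (without M5W) as each mouse was left out. miR-378b, entered without a strand, had 14 counts in all, at most 4 in any mouse, and was not tested.

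miR-335-5p, whose precursor lies at chr6:30691299-30691396 (+) of NCBIM37 in an intron of the imprinted gene Mest on the same strand, was also below the filter. It had 9, 6, 12 and 5 counts in M1N, M2N, TN1 and TN2 and 2, 13, 4 and 22 in M1W, M2W, M3W and M5W. The WD mice held both the lowest and the highest values, 0.657 CPM in M1W and 6.84 CPM in M5W, and the SD mice lay between them (exact permutation test, two-sided, p = 0.971).

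The values depended on which SD mice served as controls. Against M1N and M2N, 1 of the 10 tested metabolic miRNAs (miR-378-5p) met the criteria, against 34.9% of the miRNA class, and the same 1 had an adjusted p under 0.05, against 21.4% of all small RNAs. Against TN1 and TN2, 1 of the 10 (miR-107-5p) met the criteria, against 11.7% of the class, and 0 had an adjusted p under 0.05 by edgeR, against 0.0708% of all small RNAs. Both comparisons use the same WD mice. Within the standard diet, both M-named mice exceeded both TN mice in 5 of the 14 miRNAs (miR-103-3p, miR-107-3p, miR-107-5p, miR-378-3p and miR-378-5p), and the TN mice exceeded the M-named mice in 2, the strands of miR-122. Among the 10 tested these counts were 5 and 0, and in the 418 tested entries of the miRNA class the shares were 46.2% and 24.9%. A difference between the pairs of SD mice was thus common in the miRNA class. Mice with TN names were all on the standard diet, so diet and whatever the names mark cannot be told apart in their comparison with WD mice.

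**Figure D2:**
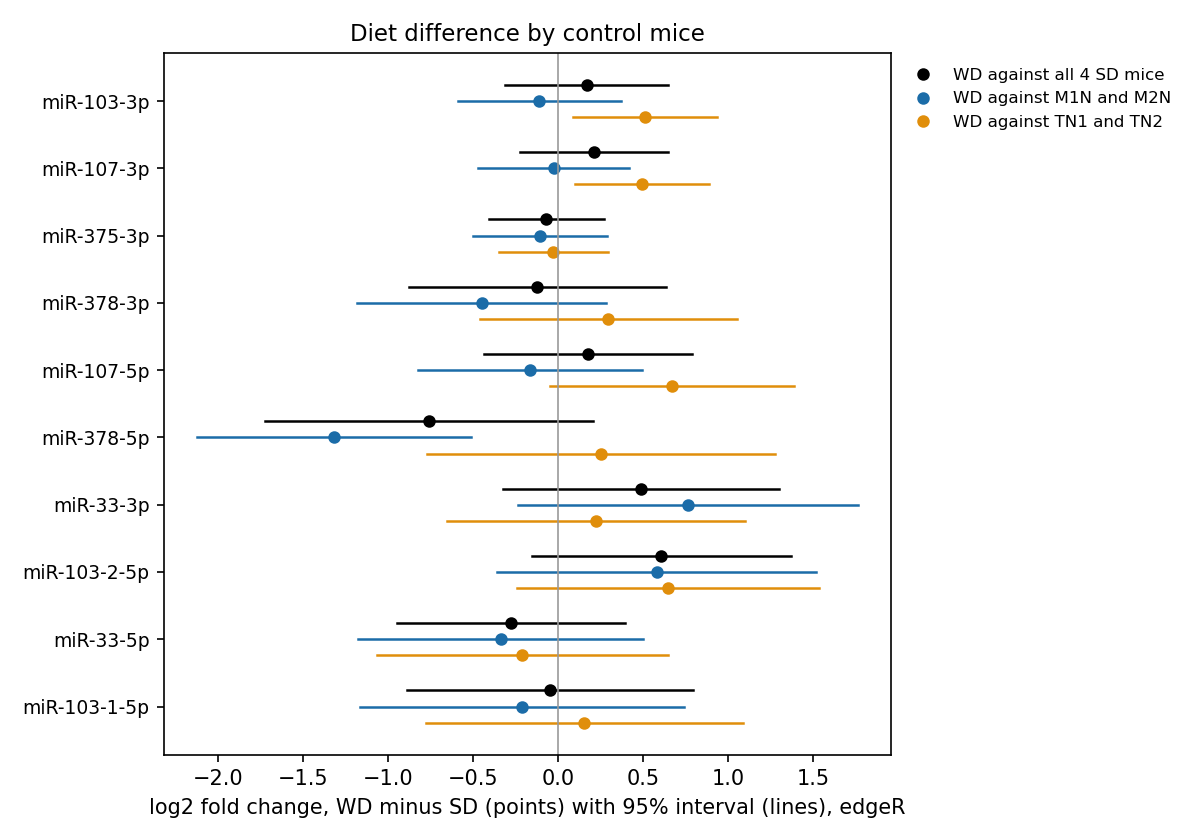
Log2 fold changes (WD minus SD, points) with 95% intervals (lines) from edgeR for the 10 tested miRNAs, against all 4 SD mice (black), M1N and M2N (blue) and TN1 and TN2 (orange). All 10 intervals against the 4 SD mice cross 0. For miR-378-5p the interval against M1N and M2N, -2.12 to -0.51, lies below 0, and the intervals against TN1 and TN2 of miR-103-3p, 0.09 to 0.93, and miR-107-3p, 0.10 to 0.89, lie above 0, with an adjusted p of 0.999 for both.

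A wider list of metabolic miRNAs set the 14 in context. Of 40 miRNAs asked for, 38 were listed and 37 tested. By the criteria, 3 were higher and 0 lower in WD mice, against 15.1% of the class in either direction, and 0 had an adjusted p under 0.05. The groups did not overlap in 2 (miR-27a-3p and miR-30b-5p), against 8.37% of the class. Both counts lie below these shares of 37. The median log2 fold change was 0.05. The 3 higher ones all belonged to the list for insulin secretion and islet cells, of which 10 were tested with a median of 0.03. The lists for cholesterol and lipoproteins (9 tested, median 0.22), insulin action (9 tested, median 0.11) and fat cells (9 tested, median -0.06) had 0 in either direction.

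The 3 miRNAs within the criteria are also known from neurons or immune cells. miR-124-3p, the main neuronal miRNA, measured 24.0, 23.0, 80.6 and 80.6 CPM in M1N, M2N, TN1 and TN2 and 101, 82.9, 76.0 and 147 in M1W, M2W, M3W and M5W (log2 fold change 0.98 ± 0.36, SE; adjusted p = 0.318). M1N and M2N were low and all 6 others high, the TN mice included, so that the low values came from the M-named SD mice. miR-9-5p, likewise neuronal, had a log2 fold change of 0.61 ± 0.34 (SE; adjusted p = 0.398), and miR-146a-5p, induced by inflammatory signalling, of 0.87 ± 0.29 (SE; adjusted p = 0.318). The most abundant miRNAs of the wider list were miR-34a-5p (3784 CPM in SD and 3410 in WD mice, log2 fold change -0.15 ± 0.20, SE), miR-145-5p (3437 and 3708 CPM, 0.11 ± 0.22, SE) and miR-29a-3p (2970 and 2980 CPM, 0.01 ± 0.20, SE). In none of these was the difference larger than the spread between mice.

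Markers of other cell types varied between the mice as well. The neuronal list (3 of 3 listed, led by miR-124-3p) summed to 29.1, 33.2, 92.9 and 89.9 CPM in M1N, M2N, TN1 and TN2 and to 120, 89.0, 86.2 and 160 in M1W, M2W, M3W and M5W, with M1N and M2N lowest. Most of this sum was miR-124-3p. miR-9-5p was lowest in M2W (4.82 CPM), with M1N at 5.14 and M2N at 8.61 CPM, above TN2 at 6.95, and miR-9-3p in M2N (1.59 CPM) exceeded all 4 WD mice. The epithelial list (5 of 5 listed, led by miR-200a-3p) summed to 29.5, 43.4, 54.2 and 60.2 CPM in the SD mice and to 60.8, 105, 54.8 and 62.5 in the WD mice, in the same order, again with M1N and M2N lowest and M2W highest. Its members went both ways: miR-200b-3p in M2N (15.6 CPM) lay above TN1 (12.9), M1W (13.8) and M3W (14.7), and the rare miR-200c-3p was highest in M1N (3.08 CPM). The muscle list (3 of 6 names asked for were listed, led by miR-1a-3p) lay between 31.8 and 54.8 CPM in all mice.

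The blood cell list (6 of 7 listed, led by miR-223-3p) summed to 574, 440.0, 389 and 335.3 CPM in M1N, M2N, TN1 and TN2 and to 300.1, 575, 379 and 277 in M1W, M2W, M3W and M5W. Its members did not move as a body: miR-451, the red cell miRNA, averaged 50.2 CPM in the M-named SD mice and 125 CPM in the TN mice, whereas miR-223-3p, of myeloid cells, averaged 251 and 103.03 CPM. The mice that carried miR-122, at 142 (TN1) and 107.5 CPM (TN2) of miR-451, were thus higher in it than the other SD mice. Among the WD mice, all at 0 counts of miR-122, M2W reached 128 CPM of miR-451 and M3W 107.8 CPM. M1W and M5W were at 70.3 and 71.5 CPM. The other red cell miRNA, miR-144-3p, was highest in TN1 (6.30 CPM) and TN2 (6.95 CPM), against at most 4.27 CPM in the M-named mice (M1W; 3.95 CPM in M2W). The testis list, led by miR-34c-5p, summed to 20704, 18944, 20409 and 17439 CPM in the SD mice and to 17492, 21813, 22435 and 19276 in the WD mice, in the same order. By the criteria, the neuronal list had 2 of 2 tested miRNAs higher in WD mice, the epithelial list 2 of 3 higher, the blood and testis lists each 1 higher and 1 lower (of 6 and 8 tested), and the muscle and vessel lists 0 (of 2 and 6), with 0 adjusted p under 0.05 among them, against 15.1% of the class within the criteria in either direction. The part of these cell types in the levels of the metabolic miRNAs was not tested.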

How the data were processed

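Total testis RNA was extracted with Trizol per the labels, while the study's methods name either Trizol or a Qiagen kit, and small RNA libraries were made with a SOLiD kit and read on a SOLiD sequencer. The authors aligned reads, trimmed at the adaptor or otherwise at 31 bases, to mm9 with 2 mismatches allowed. They annotated the reads with miRBase 18 and other databases, and deposited the raw counts of every mouse without normalisation. The submitters' processing notes name Bowtie and DESeq. The handling of reads with several matches is not given in the sources used here. All 8 columns of counts were used and 0 were left out.

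Counts were tested with edgeR 4.0.16 in R 4.3.3 (TMM factors, column totals as library sizes, filterByExpr with a minimum count of 10 and total of 15, glmQLFTest, two-sided) over all classes, WD against SD, with Benjamini-Hochberg adjustment over all small RNAs tested. Fits on fewer mice used the small RNAs tested in all 8. The p-values measure the spread between mice of the same diet. In the SD group this spread includes the difference between the M-named and the TN mice. Strand ratios were tested with limma 3.58.1 on log2((5p + 0.5)/(3p + 0.5)), for precursors with a mean count of at least 10 on both strands, with the counts of genes sharing a mature strand added. Exact permutation tests used all 70 assignments. DESeq2 1.42.0 and limma-voom were among the alternatives, with other scalings, filters, control mice, a replicate block and the omission of each mouse. The edgeR fit and the strand ratio fit were also run on simulated counts, drawn without a difference between the pairs of SD mice. Sequences were read and figures drawn with Python 3.11.15 and matplotlib 3.10.9.

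The text names every miRNA the rule selects, entries of the same precursors, miRNAs sharing a seed with them, of a wider metabolism list the 3 most abundant and those meeting the criteria, and the most abundant miRNA of each cell type list. miR-27a-3p, miR-30b-5p, miR-451, the liver, gut and kidney miRNAs and cell type markers other than the most abundant were named after their values were seen. The miRNAs examined and the lists were chosen with earlier results of these data known.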

Additional observations from a re-analysis of the deposited data

Results flagged for a closer look

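In 4 of the 38 groups of 4 mice examined, a mouse lay far from the other 3 of its group by Dixon's criterion, where chance gives about 1.9. miR-378-3p was 56.1 CPM in M2W, against 16.5 to 21.7 CPM in the other WD mice. miR-33-5p was 4.35 CPM in M5W, against 3.07 to 3.29 CPM in the other WD mice, a difference of a few counts. miR-378b was 1.37 CPM in M1N, from 4 counts, against 0.315 to 0.463 CPM in the other SD mice, from 1 count each. The total count of TN2 was 2064562, against 3101032 to 3253798 in the other SD mice, so that limits of detection are highest in TN2, a mouse in which miR-122 was nevertheless read.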

How the results depend on the processing

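The number of the 14 miRNAs within the criteria, 0 in the reported fit, was 1 with limma-voom, with column totals and with upper-quartile factors (miR-103-2-5p in each), 1 against M1N and M2N (miR-378-5p), 1 against TN1 and TN2 (miR-107-5p), 1 in M1N, M2N, M1W and M2W with and without a replicate block (miR-378-5p) and 2 with no filter, where both strands of miR-122 enter with fitted values that depend on the prior count. It was 0 to 3 when each mouse was left out, and 0 under the other 6 alternatives, of which the filter of 10 counts in every mouse left 5 miRNAs to test and the stricter p of 0.05 could not add to a count of 0. Of the 418 tested entries of the miRNA class, 62 met the criteria with column totals, 64 with upper-quartile factors and 56 with limma-voom. Against M1N and M2N 146 of the 418 met them, and against TN1 and TN2 49. In M1N, M2N, M1W and M2W, 116 met them with the replicate block and 117 without. With no filter, 121 of 730 entries met them. The number of the 14 with an adjusted p under 0.05 was 1 against M1N and M2N and 0 under the other 12 alternatives and without each mouse. The cause was not tested.

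Signs of fold changes turned, that of miR-378-5p, the largest of the 10, included. miR-103-1-5p was 0.046 with limma-voom, 0.027 with column totals and 0.16 against TN1 and TN2. Against M1N and M2N, miR-103-3p was -0.11, miR-107-3p -0.024, miR-107-5p -0.16 and the miR-107 strand ratio -0.090. Against TN1 and TN2, miR-378-3p was 0.30, miR-378-5p 0.26 and the miR-103 strand ratio -0.059. With each mouse left out, the ranges were -0.029 to 0.29 (miR-103-3p), -0.13 to 0.035 (miR-375-3p), -0.66 to 0.21 (miR-378-3p), -0.24 to 0.34 (miR-103-1-5p), -0.12 to 0.54 (miR-103 strand ratio) and -0.032 to 0.17 (miR-107 strand ratio). The cause was not tested.

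Same-numbered mice (M1N with M1W, M2N with M2W) are different animals. Their deviations from the group means correlated at -0.0779 and 0.243 across small RNAs. Those of the mice with different numbers correlated at -0.0699 (M2N with M1W) and 0.233 (M1N with M2W). M1N and M2N both stood apart from the TN mice, so their deviations may be alike, and such correlations can hardly show a pairing by number. No pairing is given in the sources used here, and the mice are treated as unpaired. In these 4 mice, 1 of the 10 tested metabolic miRNAs (miR-378-5p) met the criteria with a replicate block and 1 without. In the miRNA class 116 of 418 tested entries met them with the block and 117 without. With the replicate block miR-103-3p was -0.090 and miR-107-5p -0.053, and without it -0.018 and -0.066. At a minimum mean of 50 counts on both strands none of the strand ratios was testable.

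At the depth of these libraries, a miRNA such as miR-33-5p, with 10.9 counts per mouse, carries a counting error of 30.3%, so single values of miR-33, miR-335-5p and the rare strands are imprecise.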
